A study of Mus musculus with 10 samples.

Results

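LIM homeodomain factors are transcription factors that carry a pair of zinc-binding LIM domains beside a DNA-binding homeodomain. In the developing brain they mark territories and classes of neurons, and they act in complexes in which the LIM domains bind the adaptor Ldb1 or Ldb2, a contact for which the LIM-only (Lmo) proteins compete. *Lmx1a* belongs to this family and marks the cortical hem (CH), the signaling center between the choroid plexus and the cortical neuroepithelium that gives rise to Cajal-Retzius (CR) cells, whereas *Lhx2* specifies the adjacent cortex. The genes described here are *Lmx1a*, *Lmx1b*, *Lhx1*, *Lhx5*, *Lhx2*, *Lhx9*, *Lhx6*, *Lhx8* and *Isl1*, found by symbol, which makes 9 of the 52227 genes in the deposited table. All 9 passed the filter on low counts, along with 21664 genes in all.

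Laser capture microdissection isolated the CH from 5 wild-type embryos and 5 *Lmx1a-/-* embryos at e13.5 for RNA sequencing, with the CH sections of an embryo pooled into 1 library. The mutants were homozygous for *drJ*, a spontaneous point mutation of *Lmx1a* that the study treats as a null allele, and the wild-type embryos were littermates on a mixed C57Bl6, FVB and CD1 background. No embryo was given a treatment. The borders of the CH were set by Lmx1a immunostaining of adjacent sections in both genotypes.

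Libraries held 19145952 to 36462780 counts, of which 20.6% to 27.6% came from mitochondrial genes. Levels are given in CPM, that is, counts scaled to the size of the library with TMM factors, and 3 counts corresponded to 0.0831 to 0.163 CPM. Sex followed genotype in all libraries but wild-type embryo 1. *Xist*, the transcript of the inactive X chromosome, stood at 4399 to 5169 CPM in wild-type embryos 2 to 5, at 1.01 CPM in wild-type embryo 1 and at 0.163 to 1.15 CPM in the mutants. The Y-linked *Ddx3y* stood at 65.6 CPM in wild-type embryo 1, at 72.5 to 84.3 CPM in the mutants and at 0 to 0.0588 CPM in wild-type embryos 2 to 5. The Y-linked *Eif2s3y*, *Kdm5d* and *Uty* split the libraries in the same way. By these genes, wild-type embryos 2 to 5 were female and all other embryos male. Wild-type embryo 1 was thus the only wild-type library on the same side as all mutants, and its value is given for each of the 9 genes that passed the test.

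Scaled to exon length, *Lhx2* and *Lmx1a* were the most abundant genes of the family in both genotypes. In wild-type CH, *Lhx2* had 61.9 ± 18.4 CPM per kb of merged exons and *Lmx1a* 20.95 ± 5.36 CPM per kb (SD, n = 5 embryos each). *Lhx9* followed at 6.21 ± 1.92 CPM per kb. The ranges of *Lhx2*, *Lmx1a* and *Lhx9* over embryos did not meet, and from *Lhx9* downward each gene overlapped the next. The lower group held *Lhx8* (4.86 ± 5.02 CPM per kb), *Lhx1* (4.28 ± 1.22), *Isl1* (2.23 ± 3.52), *Lhx6* (1.41 ± 0.946), *Lmx1b* (0.569 ± 0.173) and *Lhx5* (0.558 ± 0.301). *Lhx2* accounted for 59.95% and *Lmx1a* for 20.3% of the summed mean per-length level of the 12 mouse LIM homeodomain genes. The study places *Lhx2* in the adjacent hippocampal primordium and not in the CH itself. How much neighbouring tissue contributed to the *Lhx2* level of these captures was not tested.

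In *Lmx1a-/-* CH the same 3 genes led, with *Lhx2* at 83.4 ± 18.9, *Lmx1a* at 33.6 ± 6.18 and *Lhx9* at 6.33 ± 1.71 CPM per kb. Below them the order changed. *Lhx5*, last of the 9 in wild-type CH, came before *Lhx1* with 2.00 ± 0.977 against 1.66 ± 0.643 CPM per kb, although the ranges of these neighbours overlapped. The remaining family genes were near the limit of detection. *Lhx4*, a motor neuron and pituitary gene, had 0 to 38 counts per wild-type library and 0 to 10 per mutant library. *Isl2*, a marker of motor and sensory neurons, had 0 to 16 and 0 to 3 counts and was not tested. *Lhx3* had 3 counts in all libraries together.

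**Figure D1:**
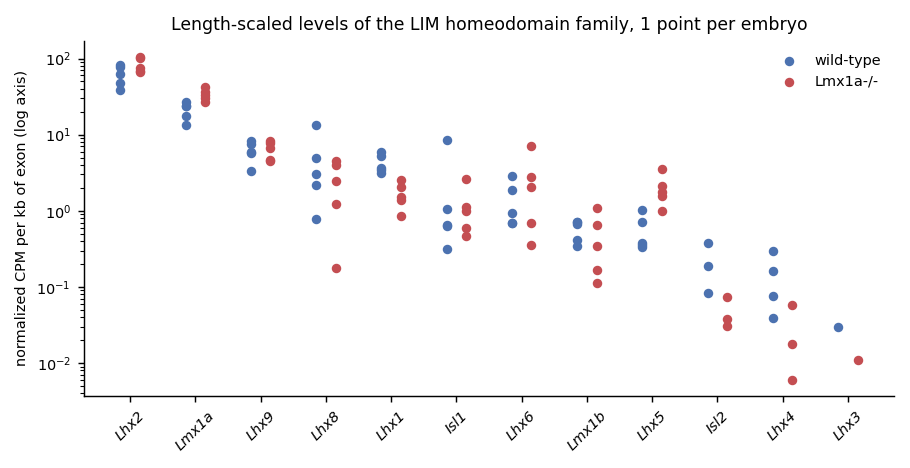
Normalized CPM per kb of merged exons (log axis) for the 12 LIM homeodomain genes, with 1 point per embryo in wild-type (blue) and *Lmx1a-/-* (red) CH and libraries at 0 not drawn. *Lhx2* and *Lmx1a* have the highest means in both genotypes, and *Lhx5* and *Lhx1* move in opposite directions between the genotypes. The highest wild-type *Lhx8* point (13.44 CPM per kb) lies just above the lowest wild-type *Lmx1a* point (13.42).

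Of the 9 genes, 3 passed an FDR under 0.1 over all genes tested by edgeR's quasi-likelihood test. *Lhx1* was lower and *Lhx5* and *Lmx1a* were higher in *Lmx1a-/-* CH, and this count includes *Lmx1a* although its staining guided the capture. Over all genes tested, 4.02% passed, 2.29% as lower and 1.72% as higher genes. The median log2 fold change of the 9 genes was 0.025, and that of all genes tested was -0.0049. The genotypes did not overlap for 1 of the 9 genes, *Lhx1*, against 4.44% of all genes tested (2.27% lower and 2.17% higher).

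**Figure D2:**
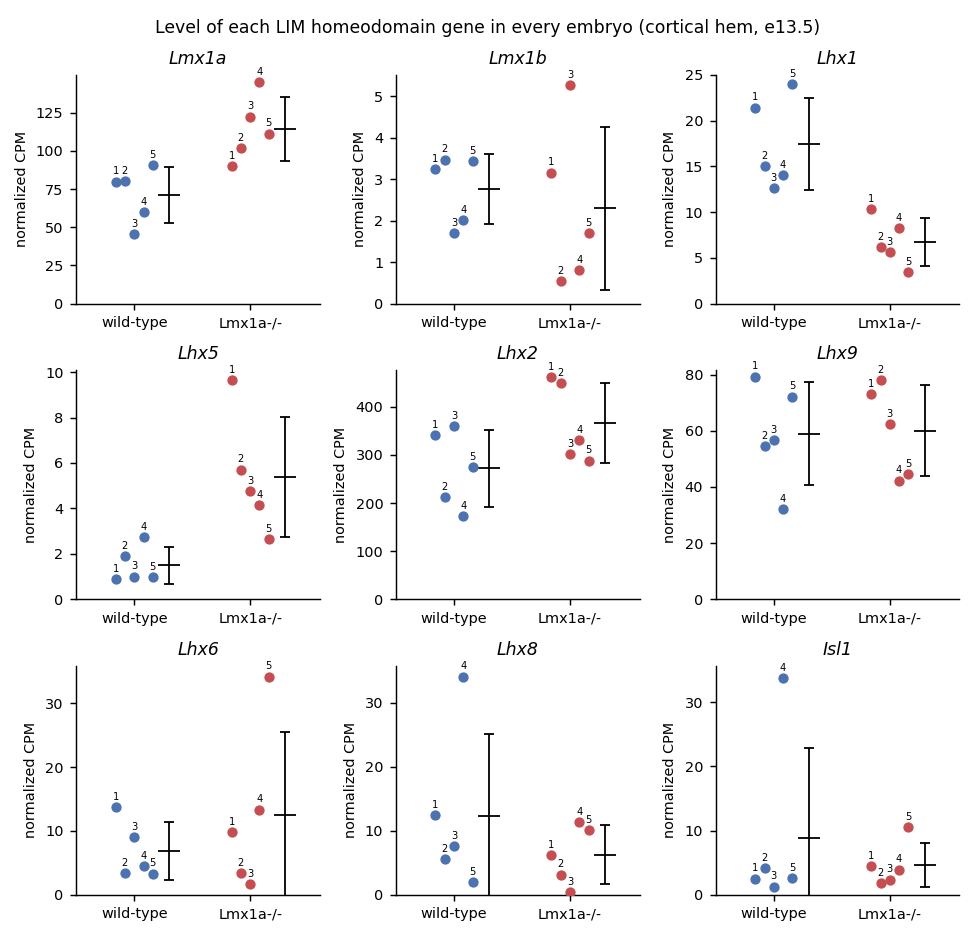
Normalized CPM of each gene in every embryo, numbered as in the labels, for wild-type (blue) and *Lmx1a-/-* (red) CH, with the mean and SD over 5 embryos in black and bars that would pass below 0 ending at the axis. *Lhx1* separates the genotypes, *Lhx5* nearly does, and *Lhx8* and *Isl1* are set apart by wild-type embryo 4.

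*Lmx1a* (ENSMUSG00000026686, chromosome 1 of GRCm38, 167689237 to 167848741, plus strand) was transcribed in every library. Wild-type embryos had 45.6 to 90.8 CPM with a median of 79.8, and mutant embryos had 89.9 to 145 CPM with a median of 111. The ranges met only at wild-type embryo 5 and mutant embryo 1, and wild-type embryo 1 stood at 79.8 CPM, below every mutant. The log2 fold change was 0.68 (SE 0.17, FDR = 0.0658 by edgeR's quasi-likelihood test). Lmx1a staining set the borders of the captured tissue, and the part of the capture in this value was not tested. A point mutation leaves the gene's exons in place, so the *Lmx1a* count does not check the genotype labels. The call did not hold without wild-type embryo 1, wild-type embryo 4, *Lmx1a-/-* embryo 4 or *Lmx1a-/-* embryo 5 (edgeR quasi-likelihood FDR = 0.102, 0.126, 0.157 and 0.107).

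*Lmx1b* (ENSMUSG00000038765, chromosome 2, 33560965 to 33640511, minus strand), the closest relative of *Lmx1a* and a regulator of dopaminergic and serotonergic neurons, limb mesenchyme and eye development, was far less abundant. It had 3.25, 3.47, 1.71, 2.02 and 3.44 CPM in wild-type embryos 1 to 5. In mutant embryos 1 to 5 it had 3.16, 0.543, 5.28, 0.803 and 1.70 CPM, so that the mutants spread on both sides of the wild-type range. The log2 fold change was -0.27 (SE 0.51, FDR = 0.851 by edgeR's quasi-likelihood test), with a 95% interval from -1.37 to 0.84.

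Within a library, the ratio of *Lmx1a* to *Lmx1b* counts does not depend on library scaling. It lay between 22.9 and 29.1 in the 5 wild-type embryos. In mutant embryos 1 to 5 it was 28.3, 178, 23.1, 177 and 64.6. The wild-type ratios were close together, and 3 of the mutants stood above all of them. The mean log2 ratio was 4.69 ± 0.13 in wild-type and 6.06 ± 1.40 in mutant CH (SD, n = 5 embryos each, two-sided exact permutation p = 0.0873, 0.116 adjusted over the 4 subfamilies tested).

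*Lhx1* (ENSMUSG00000018698, chromosome 11 of GRCm38, 84518284 to 84525535, minus strand), known for its role in head formation and in CR and Purkinje cells, fell in *Lmx1a-/-* CH. Wild-type embryos 1 to 5 had 21.4, 15.1, 12.6, 14.1 and 24.0 CPM. Mutant embryos 1 to 5 had 10.3, 6.14, 5.66, 8.25 and 3.44 CPM. Every wild-type library was above every mutant library, wild-type embryo 1 included. The mean was 17.4 ± 4.98 CPM in wild-type and 6.76 ± 2.62 CPM in mutant CH (SD, n = 5 embryos each). *Lhx1* thus had a log2 fold change of -1.36 (SE 0.27, FDR = 0.021 by edgeR's quasi-likelihood test), that is, 2.57-fold lower. The call held in all 10 fits that left out 1 embryo (log2 fold change from -1.57 to -1.19).

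*Lhx5* (ENSMUSG00000029595, chromosome 5, 120431699 to 120441223, plus strand), the closest relative of *Lhx1* and required for hippocampal development in the mouse, rose. Wild-type embryos 1 to 5 had 0.896, 1.89, 1.00, 2.75 and 0.96 CPM, from 24 to 53 counts. Mutant embryos 1 to 5 had 9.64, 5.71, 4.77, 4.15 and 2.64 CPM, from 76 to 290 counts. Wild-type embryo 4 was just above mutant embryo 5, and all other mutant libraries were above all wild-type libraries. The mean was 1.5 ± 0.81 CPM in wild-type and 5.38 ± 2.63 CPM in mutant CH (SD, n = 5 embryos each). *Lhx5* thus had a log2 fold change of 1.86 (SE 0.40, FDR = 0.0324 by edgeR's quasi-likelihood test), that is, 3.63-fold higher. The call held in all 10 fits that left out 1 embryo (log2 fold change from 1.53 to 2.18). An antisense transcript, *Gm27199*, shares 69 exon bases with *Lhx5* and was itself called higher (FDR = 0.00404 by edgeR's quasi-likelihood test). It had 1, 0, 0, 0 and 0 counts in wild-type and 16, 13, 8, 61 and 24 counts in mutant embryos 1 to 5, fewer than *Lhx5* in every library. The part of antisense reads in the *Lhx5* counts was not tested.

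The ratio of *Lhx1* to *Lhx5* counts was 23.4, 7.87, 12.5, 5.08 and 24.6 in wild-type embryos 1 to 5. In mutant embryos 1 to 5 it was 1.07, 1.08, 1.19, 1.98 and 1.30. Wild-type libraries thus held 5.08 to 24.6 times as many *Lhx1* as *Lhx5* reads, and mutant libraries held 1.07 to 1.98 times as many. The mean log2 ratio was 3.63 ± 0.99 in wild-type and 0.36 ± 0.37 in mutant CH (SD, n = 5 embryos each), a difference of -3.26 or 9.60-fold. The two-sided exact permutation p was 0.00794, the smallest that 5 against 5 embryos can give, and 0.0317 adjusted over the 4 subfamilies tested. The longest run of bases shared by transcripts of *Lhx1* and *Lhx5* was 20 in the GENCODE M21 annotation, and that shared by *Lmx1a* and *Lmx1b* was 21. Between subfamilies, *Lhx5* and *Lhx9* shared a run of 65 bases and *Lhx9* and *Lhx6* a run of 41. The part of shared reads in the counts of these genes was not tested.

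**Figure D3:**
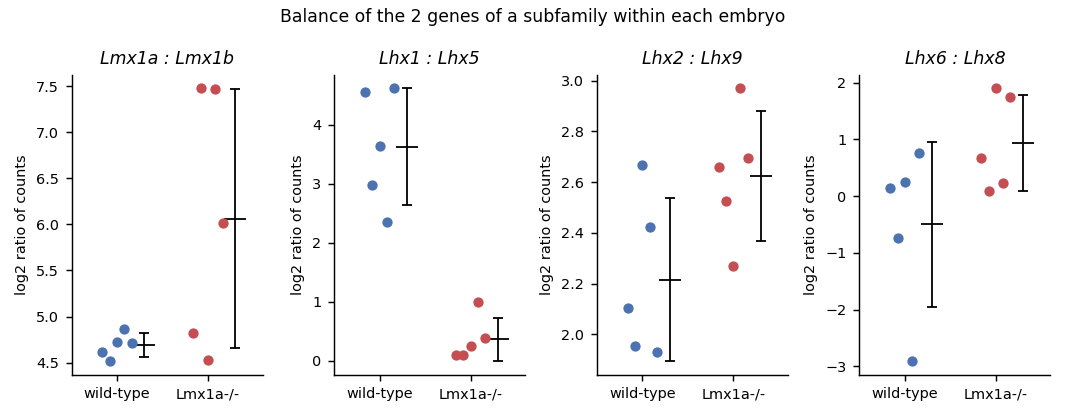
The log2 ratio of counts of the paired genes of a subfamily in each embryo, for wild-type (blue) and *Lmx1a-/-* (red) CH, with mean and SD in black and a separate axis for each pair that does not start at 0. Only the *Lhx1* to *Lhx5* ratio separates the genotypes, from 5.08 or more in wild-type to 1.98 or less in mutant CH on the linear scale.

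Some markers of CR cells other than the 9 genes were also lower. Of a list of 14 tested, the mean was lower in the mutants for 12, and 4 passed as lower and 0 as higher genes. Their median log2 fold change was -0.47. *Car10* (log2 fold change -1.95, SE 0.37), the p53 relative *Trp73* (-0.85, SE 0.17), *Reln* (-1.06, SE 0.23), which encodes the extracellular guidance protein reelin, and the cell cycle inhibitor *Cdkn1a* (-1.28, SE 0.33) were the genes that passed. The summed level of the 15 listed genes was 774 to 1141 CPM in wild-type and 476 to 744 CPM in mutant libraries, and no gene of the list was at 0. The other 10 tested genes did not pass. They included *Ndnf* (-1.33, edgeR quasi-likelihood FDR = 0.114), *Cacna2d2* (-0.56, FDR = 0.113) and *Eomes* (-0.51, FDR = 0.129), and also *Ebf1* (-0.087), *Ebf2* (-0.091) and *Ebf3* (0.070). The study counts *Cacna2d2* and *Eomes*, which it calls *Tbr2*, among its lower genes. For *Tbr2* it also reports weaker immunostaining in the mutant CH and a lower level by qRT-PCR after *Lmx1a* knockdown. Other genes that the study counts as enriched in CR cells were not on this list, and in the study they went both ways. It reports *Cntnap2*, *Chst8*, *Spock1* and *Akap6* as lower, along with *Lhx1*, and places *Lhx5* among the higher genes. Chosen after their values were seen, *Tmem163* (log2 fold change 2.01, SE 0.25), *Lingo1* (1.22, SE 0.29), *Edil3* (0.62, SE 0.17) and *Sema6a* (0.56, SE 0.13) passed as higher genes. In bulk tissue, fewer CR cells and less RNA per cell cannot be told apart.

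The sequence before the start of *Lhx1* is shown because this gene fell without overlap and because the divergent transcript *Lhx1os* starts within it. It comes from RefSeq on GRCm38.p6, minus strand, 5′ to 3′, chr11:84525535-84525784. Capitals mark TAAT on either strand, the core that homeodomains bind. The window overlaps an exon of *Lhx1os*, which does not reach the capitals, and ends on the outermost annotated base of *Lhx1*. The window before the start of *Lhx2* on the plus strand, chr2:38339031-38339280, which overlaps no annotated exon and is that of the most abundant gene, is given for comparison.
Lhx1: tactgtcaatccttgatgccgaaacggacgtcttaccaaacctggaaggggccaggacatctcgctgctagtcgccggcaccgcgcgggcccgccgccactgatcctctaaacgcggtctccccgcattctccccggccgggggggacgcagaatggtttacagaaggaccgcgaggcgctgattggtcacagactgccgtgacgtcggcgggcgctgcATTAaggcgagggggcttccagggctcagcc
Lhx2: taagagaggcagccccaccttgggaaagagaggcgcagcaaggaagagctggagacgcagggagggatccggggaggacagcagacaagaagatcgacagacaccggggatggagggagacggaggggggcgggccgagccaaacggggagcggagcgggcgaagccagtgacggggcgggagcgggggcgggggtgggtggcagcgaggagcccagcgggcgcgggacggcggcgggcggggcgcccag
The *Lhx1* window holds 1 TAAT match and the *Lhx2* window 0, and 54.9% of all 32851 windows of this length hold at least 1. The longer TAATTA, which contains the first motif on both strands, was in 0 of the 11 windows found for 8 of the 9 genes and in 4.84% of all windows. *Lhx1os*, named after its values were seen, averaged 1.22 ± 0.738 CPM in wild-type and 0.36 ± 0.345 CPM in mutant CH and did not pass (log2 fold change -1.78, SE 0.69, FDR = 0.212 by edgeR's quasi-likelihood test).

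*Lhx2* (ENSMUSG00000000247, chromosome 2, 38339281 to 38369733, plus strand), the selector of cortical identity that suppresses CH fate, had a higher mean in *Lmx1a-/-* CH but did not pass. Its levels were 340, 212, 360, 172 and 275 CPM in wild-type embryos 1 to 5 and 462, 450, 301, 331 and 288 CPM in mutant embryos 1 to 5. Mutant embryos 1 and 2 were above every wild-type library, and the other 3 lay within the wild-type range, which wild-type embryos 1 and 3 extend upward. The log2 fold change was 0.43 (SE 0.20, FDR = 0.3 by edgeR's quasi-likelihood test, unadjusted p = 0.0482), with a 95% interval from 0.0038 to 0.86.

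Among other genes of the cortical neuroepithelium, a few passed as higher. Of 14 tested, the mean was higher in the mutants for 13, and 3 passed as higher and 0 as lower genes. Their median log2 fold change was 0.32. These were *Fezf2* (log2 fold change 1.26, SE 0.11), which directs the fate of subcortical projection neurons, *Emx2* (0.65, SE 0.14), which patterns the medial cortex, and *Nr2f2* (0.95, SE 0.19). *Sox2* (0.0027), *Neurog2* (0.070), *Emx1* (0.10) and *Nr2f1* (0.12) did not pass. The summed level of the list was 707 to 1271 CPM in wild-type and 1126 to 1543 CPM in mutant libraries, with no gene at 0. The part of tissue from beyond the CH border in these levels was not tested.

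*Lhx9* (ENSMUSG00000019230, chromosome 1, 138825186 to 138848577, minus strand), the closest relative of *Lhx2*, is expressed in early cortical neurons and in the thalamus. It had 32.1 to 79.3 CPM with a median of 56.7 in wild-type and 42.3 to 78.0 CPM with a median of 62.5 in mutant embryos. The genotypes overlapped over nearly their whole ranges. Its log2 fold change was 0.025 (SE 0.23, FDR = 0.973 by edgeR's quasi-likelihood test), with a 95% interval from -0.46 to 0.51. The ratio of *Lhx2* to *Lhx9* counts averaged 2.21 ± 0.32 in wild-type and 2.62 ± 0.26 in mutant CH on the log2 scale (SD, n = 5 embryos each), and did not pass (two-sided exact permutation p = 0.0635, 0.116 adjusted).

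*Lhx6*, *Lhx8* and *Isl1* belong to the ventral telencephalon, where *Lhx6* guides cortical interneurons, *Lhx8* cholinergic neurons and *Isl1* striatal and cholinergic neurons. None of the 3 passed, and the genotypes overlapped for each. *Lhx6* (ENSMUSG00000026890, chromosome 2, 36081953 to 36105408, minus strand) had 13.8, 3.34, 9.0, 4.52 and 3.32 CPM in wild-type embryos 1 to 5. In mutant embryos 1 to 5 it had 9.84, 3.37, 1.70, 13.3 and 34.2 CPM, and only mutant embryo 5 was above the wild-type range. The log2 fold change was 0.88 (SE 0.65, FDR = 0.551 by edgeR's quasi-likelihood test), and without mutant embryo 5 it was 0.066.

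*Lhx8* (ENSMUSG00000096225, chromosome 3, 154306294 to 154330659, minus strand) had 12.4, 5.55, 7.59, 34.0 and 1.96 CPM in wild-type embryos 1 to 5 and 6.18, 3.15, 0.443, 11.3 and 10.1 CPM in mutant embryos 1 to 5. *Isl1* (ENSMUSG00000042258, chromosome 13, 116298281 to 116309689, minus strand) had 2.50, 4.15, 1.26, 33.7 and 2.59 CPM in wild-type embryos and 4.49, 1.85, 2.35, 3.90 and 10.5 CPM in mutant embryos. Wild-type embryo 4 was the highest library for both genes, and mutant embryo 5 was the highest mutant library for *Isl1*. The log2 fold changes were -0.96 (SE 0.73) for *Lhx8* and -0.92 (SE 0.79) for *Isl1* (edgeR quasi-likelihood FDR = 0.562 and 0.615). Without wild-type embryo 4 they were -0.14 and 0.82, so that *Isl1* changed sign. The 95% intervals over all embryos, from -2.54 to 0.61 and from -2.63 to 0.79, hold differences in either direction. The ratio of *Lhx6* to *Lhx8* counts did not differ past the threshold (difference in mean log2 ratio 1.43, two-sided exact permutation p = 0.119).

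Other markers of the ventral telencephalon stood beside these levels. *Nkx2-1*, which specifies the medial ganglionic eminence, had 46.5 CPM in mutant embryo 5 and 1.36 to 8.11 CPM in the other mutants. In wild-type embryos 1 to 5 it had 15.2, 3.83, 2.23, 0.934 and 12.6 CPM, so that wild-type embryo 4, highest in *Lhx8* and *Isl1*, was the lowest of all libraries in *Nkx2-1*. *Gad2*, which encodes an enzyme of GABA synthesis, had 32.1 CPM in mutant embryo 5 and 3.56 to 14.4 CPM elsewhere. The summed level of the 20 listed genes was 299 to 412 CPM in wild-type and 214 to 514 CPM in mutant libraries, the highest in mutant embryo 5, with no gene at 0. Of 19 tested, 2 were called higher, *Dlx5* (log2 fold change 1.81, SE 0.36) and *Six3* (1.11, SE 0.30). The median log2 fold change of the list was 0.37. How much tissue from outside the CH contributed was not tested.

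**Figure D4:**
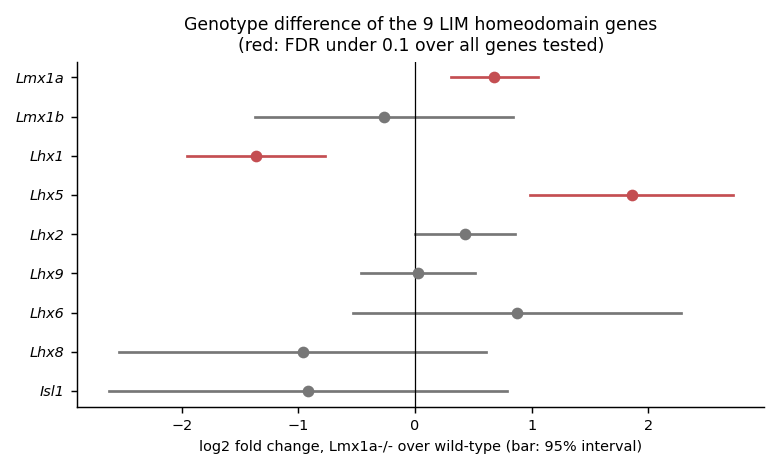
Log2 fold change of *Lmx1a-/-* over wild-type CH for the 9 genes, with 95% intervals as bars and genes past an FDR of 0.1 over all genes tested in red. The intervals of *Lhx6*, *Lhx8* and *Isl1* each span more than 2 units and include 0.

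Cofactors of the LIM complex were compared as a list of 10, of which all were tested. *Lmo2*, a LIM-only gene that the study lists as an already known CH marker, was the only gene to pass. It is also known for its role in blood and vessel development. Of the 10 genes, 7 had a lower mean (median log2 fold change -0.12). *Lmo2* had 174, 144, 94.8, 98.3 and 181 CPM in wild-type and 25.3, 28.4, 19.5, 27.7 and 32.8 CPM in mutant embryos 1 to 5. The genotypes did not overlap (log2 fold change -2.37, SE 0.20, FDR = 8.76e-05 by edgeR's quasi-likelihood test). The adaptor gene *Ldb1* had 121 ± 5.64 and 112 ± 30.6 CPM (log2 fold change -0.11, SE 0.16, FDR = 0.795 by edgeR's quasi-likelihood test). Its relative *Ldb2* had 47.1 ± 9.97 and 31.0 ± 9.35 CPM (-0.60, SE 0.21, FDR = 0.168 by edgeR's quasi-likelihood test), and *Lmo4* had 25.8 ± 12.6 and 13.3 ± 5.28 CPM (-0.95, SE 0.31, FDR = 0.145 by edgeR's quasi-likelihood test).

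The genes of the dorsal midline, where *Lmx1a* acts, moved in both directions. Of 22 tested, 6 were called lower and 3 higher, and the median log2 fold change was -0.33. *Msx1*, a target of BMP signaling, fell most among those called (log2 fold change -2.11, SE 0.39), and *Wnt2b* fell as well (-1.02, SE 0.19). *Gli3*, which encodes a repressor of the hedgehog pathway that the CH needs to form, rose (0.43, SE 0.079). The summed level of the 23 genes was 3204 to 5589 CPM in wild-type and 4107 to 5200 CPM in mutant libraries.

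Within genotypes, the *Lmx1a* level varied from embryo to embryo together with particular CH genes. Among 9267 other genes of at least 10 CPM on average, the 3 most like *Lmx1a* after the mean of each genotype was taken off were *Wnt9a*, *Rspo3* and *Ezr*. Pearson's r over the 10 libraries was 0.986, 0.983 and 0.978, Spearman's rho was 0.976, 0.988 and 0.976, and r without the 2 libraries farthest from the median of *Lmx1a* was 0.969, 0.981 and 0.961. *Wnt9a* and *Rspo3* encode a Wnt ligand and a secreted amplifier of Wnt signaling and belong to the dorsal midline list, and *Ezr* encodes ezrin, which links membranes to actin. The mean of the dorsal midline list had an r of 0.927 with *Lmx1a* (rho 0.915, and r 0.806 without those libraries). These values describe the libraries, which share depth and extent of capture, and were chosen as the highest of many.

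*Wnt9a* had 65.5, 70.2, 33.8, 48.8 and 72.5 CPM in wild-type and 24.9, 26.6, 32.3, 43.1 and 31.2 CPM in mutant embryos 1 to 5. In both genotypes the embryos lowest and highest in *Wnt9a* were those lowest and highest in *Lmx1a*, namely embryos 3 and 5 in wild-type and embryos 1 and 4 in mutant CH. Between genotypes the directions parted, with a log2 fold change of -0.88 (SE 0.20, FDR = 0.043 by edgeR's quasi-likelihood test) for *Wnt9a* against the higher level of *Lmx1a*. *Rspo3* had 599.5 ± 160.7 and 793 ± 169.7 CPM and did not pass (log2 fold change 0.40, edgeR quasi-likelihood FDR = 0.312). *Ezr* had 778 ± 222 and 657 ± 98.3 CPM and did not pass either (-0.24, edgeR quasi-likelihood FDR = 0.545).

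**Figure D5:**
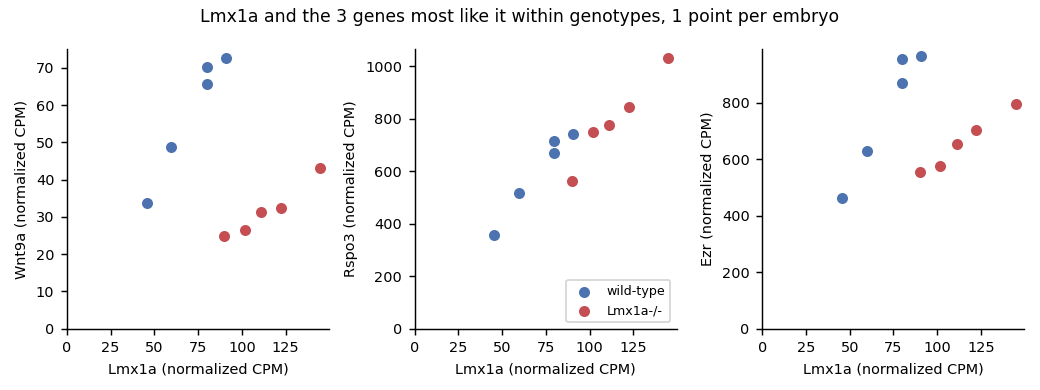
Normalized CPM of *Wnt9a*, *Rspo3* and *Ezr* against that of *Lmx1a*, with 1 point per embryo in wild-type (blue) and *Lmx1a-/-* (red) CH. For *Wnt9a* the embryos of each genotype lie along a line of their own, with wild-type embryos reaching 72.5 CPM and mutant embryos 43.1 CPM.

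For the other 8 genes, the highest r with any gene was 0.913 to 0.968. These too were picked as the highest among 9267 genes. Without the 2 libraries farthest from the median of each gene, r ran from 0.607 (*Lhx8* with *Armc10*) to 0.9815 (*Lhx2* with *Mpped2*) for the genes named below. *Lhx2* was nearest to *Zbtb18* (r = 0.966, rho 0.927), a transcriptional repressor needed for cortical development, followed by *Mpped2* and *Polr2c*. *Lhx9* was nearest to *Phf6* (r = 0.968), followed by *Slc41a1* and *Dck*, and *Lhx1* to *Coq9* (r = 0.96), followed by *Uso1* and *Ttc39c*. *Lhx5* was nearest to *Zfp639* (r = 0.961), followed by *Chst11* and *Igf2bp3*, and *Lmx1b* to *Rnf166* (r = 0.921), followed by *Pdgfrb*, a pericyte and mesenchyme gene, and *Pidd1*. *Lhx6* was nearest to *Pak1ip1* (r = 0.962), followed by *Ywhaq* and *Ywhab*, *Lhx8* to *0610030E20Rik* (r = 0.913), followed by *Armc10* and *Cdc42ep4*, and *Isl1* to *Car12* (r = 0.964), followed by *Zfp568* and *Bend5*. Among the 9 genes themselves, *Lhx2* and *Lhx9* varied together most (r = 0.78, rho 0.697) and *Lhx9* and *Isl1* in opposition (r = -0.77, rho -0.66). *Lhx9* also varied with the mean of the CR markers within genotypes (r = 0.912, rho 0.867, and r = 0.85 without the 2 libraries farthest from its median). For *Lhx1* the values were r = 0.271 and rho 0.564. The *Lhx9* value was picked as its highest over all marker lists. Its r with the other lists ran from -0.137 (LIM cofactors) to 0.767 (endothelium), with 0.60 for microglia.

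The choroid plexus epithelium also expresses *Lmx1a* and borders the CH. Of 12 of its markers tested, the mean was lower in the mutants for 11 and 2 passed, the thyroid hormone carrier *Ttr* (log2 fold change -3.42, SE 0.82) and *Calml4* (-1.37, SE 0.39), with a median of -1.09. The folate receptor gene *Folr1* had the next smallest p (log2 fold change -1.03, SE 0.31) and did not pass. Their summed level was 134 to 487 CPM in wild-type and 155 to 233 CPM in mutant libraries, with wild-type embryo 3 the lowest of all. With the mean of these markers as a covariate, which follows genotype with r = -0.80, none of the 3 calls held (FDR = 0.617 by edgeR's quasi-likelihood test for *Lmx1a*, 0.907 for *Lhx1* and 0.882 for *Lhx5*), at log2 fold changes of 1.08, -1.19 and 2.15. With *Xist* as a covariate, which follows genotype with r = -0.83, none held either (edgeR quasi-likelihood FDR = 0.645, 0.225 and 0.366), at 0.54, -1.70 and 2.56. Wild-type embryo 1 alone parts sex from genotype here, and it stood on the wild-type side for all 3 genes. With 1 library there is no spread, so the parts of sex and genotype in these values cannot be told apart.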

How the data were processed

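CH tissue of 5 wild-type and 5 *Lmx1a-/-* embryos was sequenced, 1 library per embryo. Per the submitters' notes and the methods, the authors used FastQC 0.11.8, Trimmomatic and STAR 2.7.1a on GRCm38, and HTSeq 0.11.2 made the deposited counts per gene, which are not normalized. The strand setting is not given in the sources used here, so overlapping antisense genes are uncertain. The table had 52508 rows, and 281 repeats were dropped. Positions and exon lengths are from GENCODE M21, whose gene models may differ from those the authors counted.

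Genes were tested where 3 or more libraries had 10 or more counts. edgeR 4.0.16 (R 4.3.3) compared genotypes by its quasi-likelihood test with legacy dispersions, TMM scaling and no covariate, and p-values were adjusted after Benjamini-Hochberg over all genes tested (FDR under 0.1). The SE is the log2 fold change over the square root of F. Ratios within subfamilies (0.5 counts added) were compared by exact permutation over 252 splits (scipy 1.17.1, adjusted p under 0.05). Same-numbered embryos of the genotypes did not deviate together (correlations from -0.23 to -0.0039) and were not paired. Scripts were tested on simulated data.

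The genes and the lists were chosen with earlier results of these data known. Named are the LIM homeodomain genes, *Xist* and the Y-linked genes, in each list the 3 genes of smallest p, and the 3 genes most like each of the 9. *Cdkn1a*, *Tmem163*, *Lingo1*, *Edil3*, *Sema6a*, *Gm27199*, *Lhx1os*, *Nkx2-1* and *Gad2* were named after their values were seen. So were the list genes *Ebf1*, *Ebf2*, *Ebf3*, *Ndnf*, *Cacna2d2*, *Eomes*, *Sox2*, *Neurog2*, *Emx1*, *Nr2f1*, *Ldb1*, *Ldb2* and *Lmo4*. *Cntnap2*, *Chst8*, *Spock1*, *Akap6* and *Mapk8* were named from the study. A result of the subpallium list is not reported here. Alternatives were other edgeR tests, dispersions, scalings and filters, DESeq2 1.42.0, an FDR of 0.05, embryo number as a block, *Xist* or choroid plexus markers as covariate, leaving out each embryo, other pseudocounts and transcript lengths, and, added after seeing the data, subpallium markers as covariate.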

Additional observations from a re-analysis of the deposited data

Results flagged for a closer look

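Among 48 groups of 5 embryos checked, 2 held a library set apart from the others by more than Dixon's critical value of 0.71 of the range, and chance gives about 1 in 20. *Isl1* in wild-type embryo 4 stood at 33.7 CPM, where the wild-type median was 2.59 CPM and the gap to the next embryo made up 0.911 of the range. The summed red blood cell markers in wild-type embryo 1 stood at 1473 CPM, where the wild-type median was 672 CPM and the gap made up 0.829 of the range.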

How the results depend on the processing

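Of the 9 genes, 1 was lower and 2 were higher past the threshold, against 497 and 373 of all genes. The 2 higher genes became 1 with the replicate block, the subpallium covariate or an FDR of 0.05, because *Lmx1a* no longer passed (log2 fold change 0.70, 0.64 and 0.68), and 0 genes passed in either direction with the *Xist* or choroid plexus covariate, where at an unadjusted p under 0.05 the same edgeR test gave 1 lower gene and 1 or 2 higher genes. Leaving out 1 embryo gave 1 to 1 lower and 1 to 2 higher genes of the 9, and 261 to 604 lower and 190 to 455 higher genes in all. Over all genes, the likelihood ratio test gave 805 and the exact test 772 lower genes, DESeq2 976 lower and 790 higher, the *Xist* covariate 24 and 1, the choroid plexus covariate 9 and 4, the subpallium covariate 294 and 200, an FDR of 0.05 251 and 197, and the replicate block 248 higher genes. The block changed no other call of the 9 genes. The labels do not give the litter of an embryo, so embryo numbers are not known to pair littermates, and litter was not modelled. *Lhx1* and *Lhx5* passed in all settings but the *Xist* and choroid plexus covariates. Among genes that did not pass, the sign turned for *Lhx9* with the *Xist* (log2 fold change -0.50) and choroid plexus covariates (-0.0076), *Isl1* with both (1.15 and 1.53), *Lmx1b* (1.23) and *Lhx2* (-0.018) with the choroid plexus covariate, and *Lhx6* with the subpallium covariate (-0.27). Without 1 embryo, *Lhx9* ranged from -0.13 to 0.15 and *Isl1* from -1.45 to 0.82. The *Lhx1* to *Lhx5* difference ranged from -3.58 to -3.02 without 1 embryo, where its permutation p adjusted over 4 subfamilies was 0.0635. Before adjustment, this p was the smallest that 4 against 5 embryos can give. Scaled to the longest transcript, *Lhx2* had 95.7 and 129 and *Lhx9* 11.9 and 12.2 CPM per kb in wild-type and mutant CH. The causes were not tested. At 24 to 53 counts, wild-type *Lhx5* levels carry the largest counting error of the genes called.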

Other observations

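Markers of other tissues that could be captured with the CH were compared as lists, with none of their genes at 0 in all libraries. Of 14 tested markers of meninges and mesenchyme, 3 were called lower in *Lmx1a-/-* CH and 0 higher, namely *Pdgfra* (log2 fold change -0.81, SE 0.18), *Lum* (-1.06, SE 0.27) and *Dcn* (-0.76, SE 0.20), at summed levels of 405 to 998 CPM in wild-type and 315 to 586 CPM in mutant libraries. Of 9 endothelial markers, 7 had a lower mean and 0 passed, with *Eng* (log2 fold change -0.98, SE 0.37), *Esam* (-1.14, SE 0.49) and *Tek* (-0.73, SE 0.40) at the smallest p and summed levels of 28.7 to 99.1 and 22.9 to 61.8 CPM. Of 8 tested red blood cell markers, 7 had a lower mean and 0 passed, at 632 to 1473 and 267 to 573 CPM, with *Hba-x* (log2 fold change -0.65, SE 0.19), *Hbb-y* (-0.91, SE 0.27) and *Hbb-bh1* (-0.90, SE 0.27) at the smallest p. Of 9 microglial markers, 6 had a higher mean and 0 passed, at 17.4 to 36.8 and 19.9 to 37.3 CPM, with *Tyrobp* (log2 fold change 0.73, SE 0.31), *C1qa* (-1.40, SE 0.70) and *Fcer1g* (0.58, SE 0.34) at the smallest p.

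Markers of the diencephalon, another site of *Lhx1*, *Lhx5* and *Lhx9* expression, were compared as well. Of 10 tested, 6 had a lower mean, 4 a higher mean and 0 passed, at summed levels of 57.1 to 145 CPM in wild-type and 74.8 to 118 CPM in mutant libraries. The smallest p belonged to *Rax* (log2 fold change 0.87, SE 0.60), *Irx3* (-0.62, SE 0.48) and *Pou4f1* (-0.41, SE 0.38). Within genotypes, *Lhx5* had an r of 0.541 (rho 0.709) with the mean of this list. *Lhx1* had an r of -0.167 (rho -0.115) and *Lhx9* of 0.067 (rho 0.067). These values are over the 10 libraries, which share depth and extent of capture.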
